A study of Gallus gallus with 6 samples.

Results

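The genes described here are 9 genes of the T cell receptor and of T cells: CD3D, CD3E and CD247 of the receptor complex, the co-receptors CD4 and CD8A, the costimulatory receptor CD28, the kinases LCK and ZAP70, and the transcription factor GATA3. They were chosen by name, and every probe set whose only gene symbol in the platform annotation is one of these names was kept. A probe set is the group of short probes that reports a transcript on an Affymetrix array. This gave 10 probe sets, 1 for each gene and a second for CD8A, out of 38439 probe sets tested and 13009 genes named on the array. All 9 genes are listed as protein-coding under the same names in the RefSeq table.

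Gene expression was measured in the chorioallantoic membrane (CAM), the vascularised membrane under the shell, of brown Leghorn chick embryos in shell-less culture. The wound group was CAM tissue collected 6 days after superficial scalpel cuts and scraping of its epithelium. A nylon grid was laid over the wound after the scraping. The control group was uninjured CAM of the same eggs at the same time, and so of the same embryo age. Each group held 3 arrays, 1 per tissue sample. The values are log2 intensities per probe set, so a difference of 1 is a doubling, and the table carries no detection call.

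T cells recognise peptides on MHC molecules through a receptor whose 2 chains have almost no signalling part of their own. The CD3 chains and CD247 (the zeta chain) carry the signal into the cell. CD4 and CD8 hold the MHC molecule and bring LCK, which phosphorylates the CD3 and zeta chains, and ZAP70 then docks on them. CD28 gives the second signal that a naive T cell needs. GATA3 is required for T cell development in the mouse thymus and is also expressed in epithelia, kidney and other tissues. In birds a single gene, annotated CD3D, stands where mammals have CD3D and CD3G, and T cells arise in the embryonic thymus from precursors that reach it in waves.

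The arrays were alike in overall level, with medians of 3.01 to 3.05. On the first principal component, which held 48.3% of the variance, the wounds lay at 51.2, 40.6 and 18 and the controls at -26.3, -39.1 and -44.5, so wound replicate 3 lay nearest to the controls. The 3 wounds were set against the 3 controls in limma, a linear model that shares the estimate of spread between probe sets. P-values were adjusted by the Benjamini-Hochberg method over the 38439 probe sets, and a gene is said to have risen or fallen where its adjusted p was under 0.05. The median difference over all probe sets was 0.001. With 3 arrays against 3 an exact permutation test of a single value cannot go below p = 0.1. Limma's p-values set a difference against the spread between these arrays, which in the unpaired fit includes differences between eggs. In bulk tissue, fewer cells of a type and less RNA per cell cannot be told apart.

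Of the 10 probe sets 0 passed the test in either direction, where 2.35% of all probe sets did (2.04% higher and 0.304% lower in wounds). CD3D and CD3E were the only genes of the 9 whose wound and control arrays were more than 0.1 apart on average, both higher in the wound, and the only 2 with an unadjusted limma p under 0.05, against 14.4% of all probe sets. The other 8 probe sets differed by less than 0.1 on the log2 scale. The median over the 10 was 0.007. Of the 10, 4 lay at or above the median control level of all probe sets, 3.05, namely CD3D, CD247, GATA3 and the brighter CD8A probe set, the last of them only just. The remaining 6, for CD3E, CD4, the second CD8A probe set, CD28, LCK and ZAP70, lay under it. The plot of values by array shows this split.

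**Figure D1:**
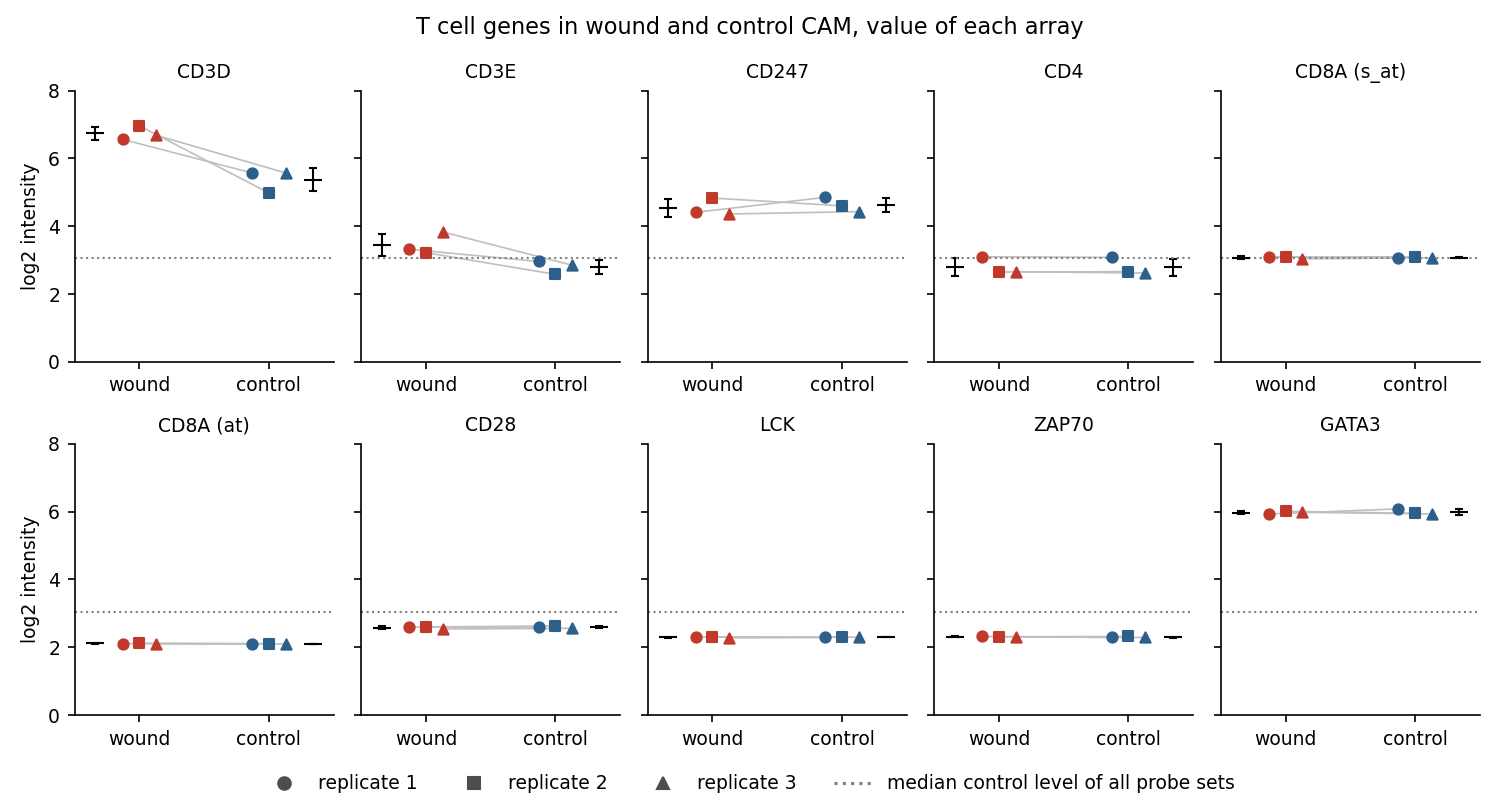
Log2 intensity of each of the 10 T cell probe sets in 3 wound arrays (red, left) and 3 control arrays (blue, right), with the group mean and SD in black, grey lines joining arrays of equal replicate number and a dotted line at 3.05, the median control level of all probe sets. CD3D and CD3E lie higher in the 3 wounds than in the 3 controls, and CD28, LCK, ZAP70 and both CD8A probe sets are nearly flat.

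CD3D, the avian counterpart of the mammalian gamma and delta chains of CD3 (Entrez gene 396518), measured 6.56, 6.96 and 6.68 in wound replicates 1 to 3 and 5.57, 4.98 and 5.57 in the controls. Every wound lay above every control, by at least the gap between 6.56 and 5.57. The mean was 6.73 ± 0.20 in wounds and 5.37 ± 0.34 in controls (SD, n = 3 arrays each), a 2.57-fold difference and 1.36 on the log2 scale (standard error 0.21, 95% interval 0.82 to 1.91). This missed the test over all probe sets narrowly, with limma's adjusted p = 0.0554, and the exact permutation p was 0.1, the smallest that the design allows. Between arrays of equal replicate number the difference was 1.0, 1.98 and 1.11. With the replicate number as a block the interval was 0.51 to 2.21 and the adjusted p 0.149. The call depends on the setting and on the test. The study, which used another test, lists this probe set among its up-regulated genes. CD3D passed when each array was centred on its median (adjusted p = 0.0493) and when dim probe sets were left out before adjustment (adjusted p = 0.0221).

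CD3E, the other CD3 chain (Entrez gene 396062), measured 3.32, 3.22 and 3.83 in the wounds and 2.96, 2.58 and 2.85 in the controls. The groups did not overlap here either, with wound replicate 3 the highest array and control replicate 2 the lowest. The mean was 3.45 ± 0.33 in wounds and 2.79 ± 0.20 in controls (SD, n = 3 each), 1.58-fold and 0.66 on the log2 scale (standard error 0.20, 95% interval 0.14 to 1.19). Its adjusted p was 0.226 from limma, 0.190 with the block. The control level of CD3E is under the median of all probe sets, where a fold change can be understated. Arrays of equal number differed by 0.36, 0.64 and 0.98.

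CD247, the zeta chain that signals with them (Entrez gene 395911), measured 4.41, 4.83 and 4.36 in the wounds and 4.85, 4.60 and 4.43 in the controls. The groups overlapped, with wound replicate 2 and control replicate 1 side by side at the top. The mean was 4.54 ± 0.26 in wounds and 4.63 ± 0.21 in controls (SD, n = 3 each), a difference of -0.09 on the log2 scale (standard error 0.18, 95% interval -0.55 to 0.36, limma's adjusted p = 0.960). The interval of CD247 ends below 0.82, the lower bound of that of CD3D. Whether the 2 differences differ was not tested.

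In 3 of the 10 probe sets, those of CD3D and CD3E and the dimmer of CD8A, the wounds lay above the controls without overlap, and in 13.7% of all probe sets they did so (19.9% in either direction). The dimmer CD8A probe set (Entrez gene 403158) measured 2.11, 2.12 and 2.11 in wounds and 2.09, 2.11 and 2.10 in controls, which meet once rounded, a difference of 0.02 on the log2 scale (95% interval -0.02 to 0.05, limma's adjusted p = 0.761). Non-overlap alone therefore covered differences of very unequal size. The brighter CD8A probe set measured 3.10, 3.09 and 3.04 in wounds and 3.06, 3.10 and 3.07 in controls, and overlapped. Its suffix, s_at, marks a probe set whose probes can match more than a single transcript, as those of LCK and ZAP70 do.

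CD4, the co-receptor of helper T cells (Entrez gene 395362), measured 3.10, 2.65 and 2.66 in the wounds and 3.08, 2.66 and 2.62 in the controls. The high arrays were the 2 of replicate number 1, and within each number wound and control differed by 0.01, -0.01 and 0.04. The mean was 2.80 ± 0.26 in wounds and 2.79 ± 0.26 in controls (SD, n = 3 each). The log2 difference of 0.01 had a 95% interval of -0.48 to 0.51 without the block and of -0.05 to 0.07 with it. Limma's adjusted p was 0.998, and 0.857 with the block.

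CD28 (Entrez gene 396249) measured 2.60, 2.60 and 2.54 in wounds and 2.60, 2.63 and 2.56 in controls, a difference of -0.02 on the log2 scale (95% interval -0.09 to 0.06). LCK, the kinase bound to the co-receptors (Entrez gene 396460), measured 2.30, 2.30 and 2.28 in wounds and 2.29, 2.30 and 2.30 in controls, a range of 0.02 over all 6 arrays. ZAP70 (Entrez gene 420086) measured 2.32, 2.31 and 2.31 in wounds and 2.29, 2.32 and 2.29 in controls, a range of 0.03. In each of these 3 probe sets the wound and control arrays overlapped, and limma's adjusted p was 0.961 for CD28, 0.998 for LCK and 0.868 for ZAP70. Such flat rows are usual among dim probe sets. Of those under the median control level, 74.4% spanned less than 0.1 over the 6 arrays, with a median range of 0.05, against 3.54% and a median range of 0.67 among the brighter ones. Only 0.245% of the dim probe sets passed the test, against 4.45% of the brighter ones. Among the 19219 dim probe sets 47 passed, counted in either direction. Among these 47 was TLR4, a receptor of myeloid cells picked after its values were seen. It measured 3.82, 3.89 and 4.21 in wounds and 2.68, 2.64 and 2.68 in controls (limma's adjusted p = 0.0190, 0.0589 with the block). TLR4 passed in 2 of the 6 fits that left out 1 array. Whether the probes of CD28, LCK and ZAP70 could report a rise was not tested. With no detection call in the table, whether CD28, LCK, ZAP70 and the dimmer CD8A probe set were above background on any array is not known.

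GATA3, the transcription factor of T helper cells and of several epithelia (Entrez gene 419106), lay at percentile 82.5 of the control levels of all probe sets. It measured 5.93, 6.01 and 5.98 in the wounds and 6.08, 5.95 and 5.93 in the controls, so the groups overlapped within a range of 0.16. The mean was 5.97 ± 0.05 in wounds and 5.99 ± 0.08 in controls (SD, n = 3 each), a difference of -0.01 on the log2 scale (standard error 0.05, 95% interval -0.15 to 0.12, limma's adjusted p = 0.992). With the replicate number as a block the interval was -0.22 to 0.19. The plot of differences sets these intervals side by side.

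**Figure D2:**
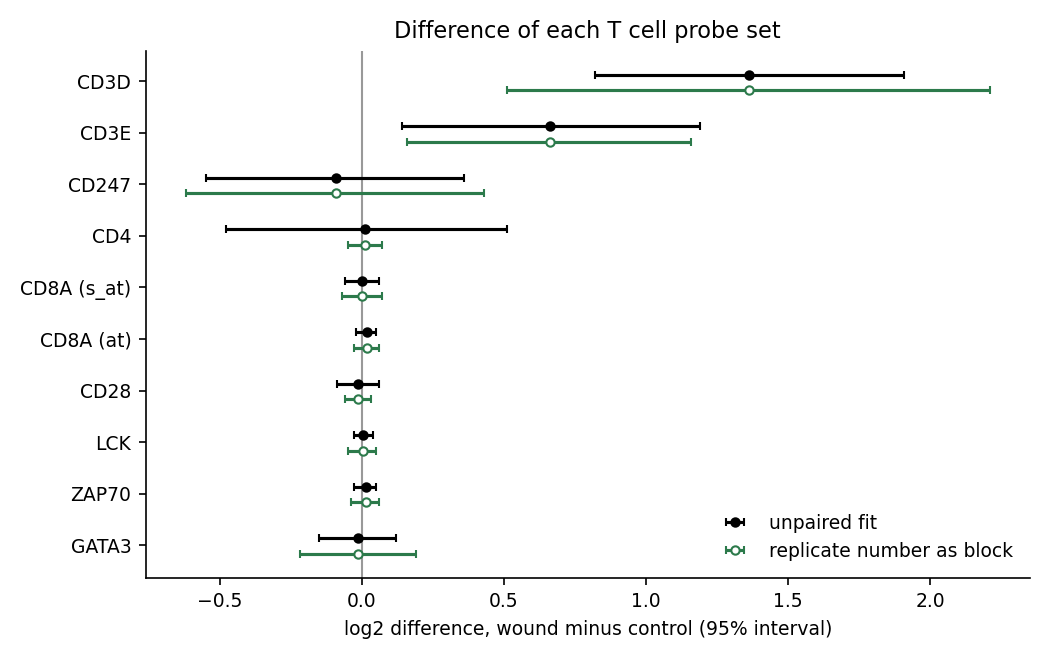
Log2 difference of wound minus control CAM for the 10 T cell probe sets, with 95% intervals that are not adjusted for the number of probe sets, from the unpaired limma fit (black) and with the replicate number as a block (green, open). The intervals of CD3D and CD3E lie above 0 in both fits, the others include 0, and that of CD4 narrows from -0.48 to 0.51 without the block to -0.05 to 0.07 with it.

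The wider set of T cell genes was read from 6 lists, of the receptor complex and co-receptors, costimulation and surface molecules, receptor signalling, lineage transcription factors, cytokines and their receptors, and lymphocyte recombination, each gene represented by its brightest probe set. The array measured 67 of these genes, the 9 included. Among them 5 rose and 0 fell, against a background of 4.31% of all genes past the test, 3.92% higher and 0.392% lower. The 5 were CD44, PTPRC, LCP2, PTPN6 and IL2RG. The lists were chosen with earlier results of these data known, and CD44, PTPRC, LCP2 and IL2RG are on the study's own list of up-regulated genes. The count is therefore not independent of these data. The median difference was 0.005, 47 genes lay within 0.1 of 0, and 38 lay under the median control level. Wounds lay above controls without overlap in 15 of the 67 genes and below them in 3. Over all probe sets the wounds lay above without overlap in 13.7%, and 19.9% were without overlap in either direction. These shares count every probe set, whereas each listed gene was read from its brightest probe set. Whether the lists differ from all probe sets in this respect was not tested.

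The 5 genes that rose are found on or in many kinds of leukocyte and not T cells alone. CD44 is not confined to leukocytes, and the study lists it among genes with an endothelial signature in cDNA libraries. PTPRC (CD45), the surface phosphatase of all leukocytes that keeps LCK active, measured 6.80, 7.69 and 7.52 in wounds and 5.32, 5.29 and 5.70 in controls. It rose 3.74-fold, 1.90 on the log2 scale (standard error 0.28, adjusted p = 0.0495 from limma, 0.0851 with the block). CD44, the hyaluronan receptor, rose by 2.49 (adjusted p = 0.0211, 0.0417 with the block), and IL2RG, the chain shared by several interleukin receptors, by 2.08 (adjusted p = 0.0200, 0.0672 with the block). LCP2 (SLP-76), the adaptor that ZAP70 phosphorylates in T cells and that myeloid cells also use, rose by 1.78 (adjusted p = 0.0221, 0.0779 with the block). PTPN6 (SHP-1), a phosphatase that damps receptor signals in blood cells, rose by 0.95 (adjusted p = 0.0369, 0.0568 with the block). All 5 lost their call when control replicate 1, 2 or 3 was left out, and 3 of the 5 passed in each fit that left out a wound array. These were not the same 3 genes each time. LCP2 and IL2RG passed in 3 of the fits without 1 array, CD44 in 2, PTPRC in 1 and PTPN6 in 0.

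Among the 7 measured genes of the receptor complex and co-receptors 0 passed the test. The 2 beyond the members were CD8BP, with a difference of 0.01 (adjusted p = 0.931), and TARP, a name that in humans belongs to the gamma chain locus of the T cell receptor. TARP, chosen after its values were seen, measured 4.75, 3.73 and 3.93 in wounds and 3.61, 3.53 and 3.36 in controls (log2 difference 0.64, adjusted p = 0.452), with wound replicate 1 well above the rest. Of 10 costimulatory and surface genes 2 rose, of 19 signalling genes 2, of 11 transcription factors 0, of 17 cytokines and receptors 1 and of 3 recombination genes 0, and none of the lists held a gene that fell. The medians of these 6 lists lay between 0.00 and 0.02. With dim probe sets left out they were 0.64 for the receptor complex, 0.57 for costimulation, 0.23 for signalling, 0.09 for transcription factors and 0.68 for cytokines and receptors, and the recombination list had no gene. That filter used the mean over all arrays, wounds included. CD3E was kept through its wound values, while CD4, with the same control mean of 2.79, was left out. The filtered medians therefore depend in part on the wound values.

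The further genes of these lists described here did not pass the test. TRAT1, which binds the receptor complex, differed by -0.01, IL4 by -0.01, and the recombination genes RAG2 by -0.01 and DNTT by 0.00 on the log2 scale, with limma's adjusted p between 0.926 and 0.991. RAG2 and DNTT lay under the median control level, and TRAT1 and IL4 spanned only 0.06 and 0.09 over the arrays. Whether any of these genes was above background is not known. PDCD1 (PD-1), an inhibitory receptor of activated lymphocytes, measured 3.64, 3.96 and 3.46 in wounds and 3.23, 3.14 and 3.0 in controls, without overlap (0.57, adjusted p = 0.164). CXCR4, the receptor of CXCL12 on many cells, measured 6.51, 6.09 and 5.94 in wounds and 5.22, 4.42 and 5.12 in controls (1.26, adjusted p = 0.115). The nuclear receptor RORA and the signalling genes FYN and NFATC3 differed by -0.01, -0.02 and 0.06 (adjusted p 0.998, 0.998 and 0.987). IKZF1 (Ikaros) and RUNX1, transcription factors of all blood lineages chosen after their values were seen, had log2 differences of 0.94 (adjusted p = 0.119) and 0.83 (adjusted p = 0.341), with the wounds above the controls without overlap in both.

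**Figure D3:**
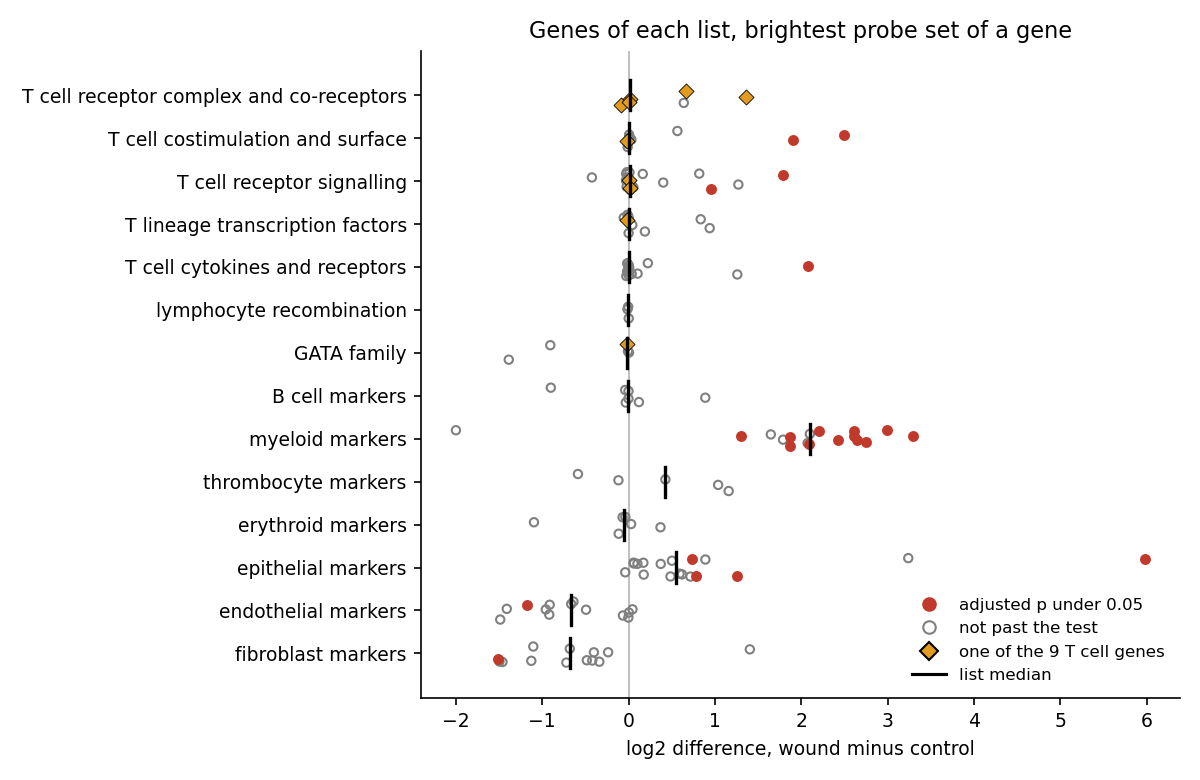
Log2 difference of wound minus control for each gene of 14 lists (rows), with genes past the test in red, those not past it as open circles, the 9 T cell genes as orange diamonds and the list median as a black bar. The T cell lists, with 38 of 67 genes under the median control level, have medians near 0 and 5 genes past the test on the right, and the myeloid markers, with 1 of 17 under it, have a median of 2.10. Most of the myeloid markers are on the study's own list of up-regulated genes from these arrays.

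Several of the 9 genes have a close relative or partner that works in other cells, and these were set beside them after the values were seen. FCER1G, the signalling chain of Fc receptors in myeloid cells and a relative of CD247, measured 7.18, 6.93 and 6.83 in wounds and 5.30, 4.35 and 5.02 in controls. It rose by 2.09 on the log2 scale (standard error 0.27, adjusted p = 0.0397 from limma, 0.0715 with the block, 0.0610 to 0.128 with any 1 array left out), where CD247 differed by -0.09. SYK, the relative of ZAP70 in myeloid and B cells, measured 4.52, 5.25 and 4.86 in wounds and 3.66, 3.67 and 3.49 in controls. Its difference was 1.27 (standard error 0.20) and missed the test at limma's adjusted p of 0.0577 (0.103 with the block), while ZAP70 stayed between 2.29 and 2.32 on every array. As for CD3D, the call of SYK depends on the setting. It passed with the array medians centred (adjusted p = 0.0461) and with dim probe sets left out (adjusted p = 0.0228), and the study lists it as up-regulated. FYN, a Src-family kinase like LCK and present in many tissues, overlapped between wounds and controls. Of the other GATA factors, GATA6 measured 5.99, 5.64 and 6.78 in wounds and 7.71, 7.50 and 7.36 in controls (-1.39, adjusted p = 0.126) and GATA5 measured 7.24, 6.51 and 7.61 in wounds and 8.09, 7.92 and 8.06 in controls (-0.91, adjusted p = 0.264). Both lay lower in every wound than in any control without passing the test, in contrast to the overlap of GATA3. GATA2 and GATA4 were dim and flat, at 1.95 and 2.27 in wounds and 1.95 and 2.28 in controls. No difference between 2 of these genes was tested.

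**Figure D4:**
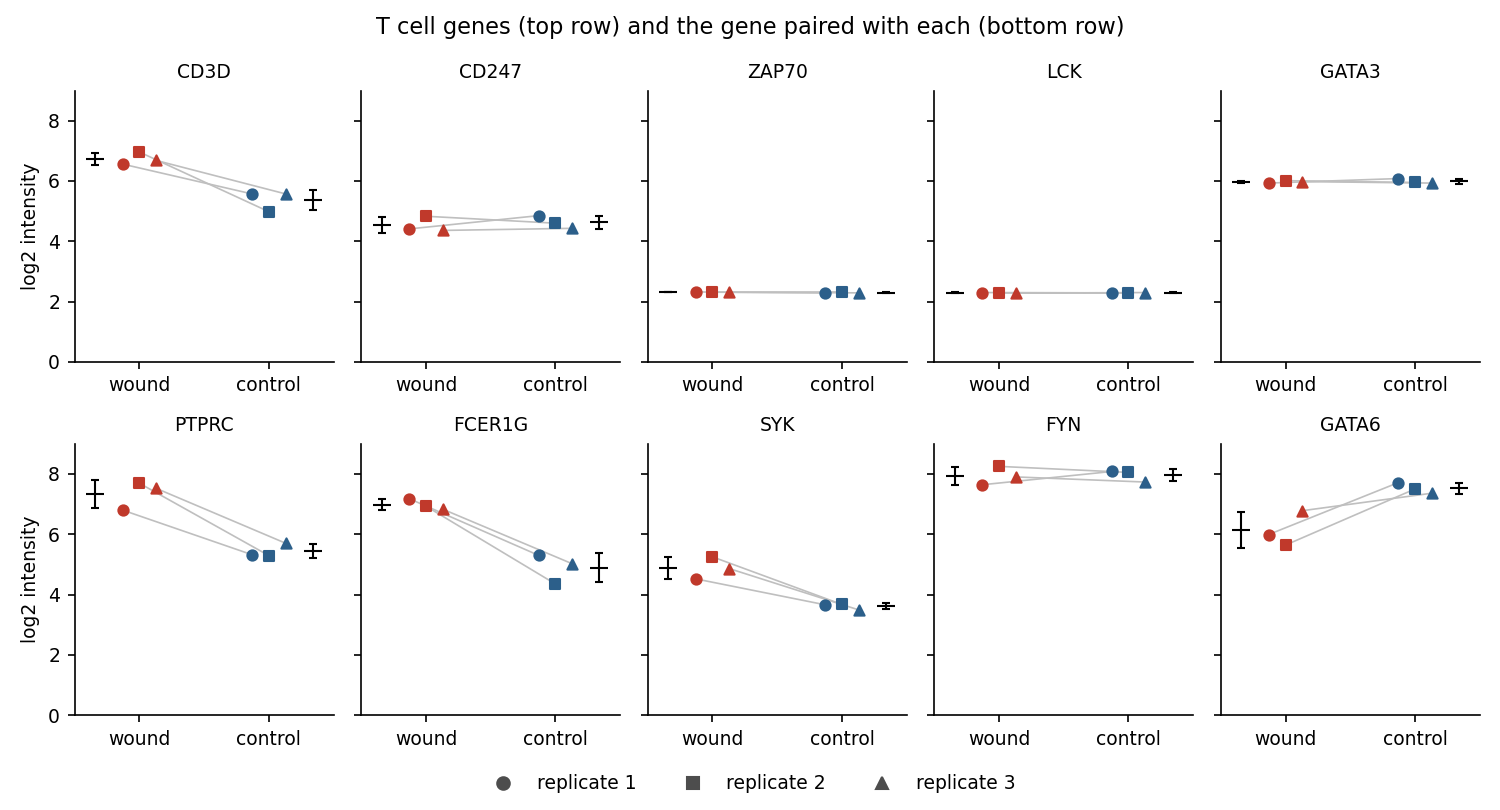
Log2 intensity of CD3D, CD247, ZAP70, LCK and GATA3 (top row) and of PTPRC, FCER1G, SYK, FYN and GATA6 below them, in 3 wound arrays (red, left) and 3 control arrays (blue, right), with the group mean and SD in black and grey lines joining equal replicate numbers. PTPRC, FCER1G and SYK lie higher in every wound, GATA6 lies lower, and CD247, LCK, ZAP70, FYN and GATA3 overlap.

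Markers of other cells were read on the same arrays. Of 17 measured myeloid markers 12 rose and 0 fell (2 and 0 with the block), with a median of 2.10, and 1 of the 17 lay under the median control level. Most of the 17 are on the study's own list of up-regulated genes from these arrays, and the lists were chosen with earlier results known. The count and the median are therefore not independent of these data. The mean level of the list ran from 7.65 to 7.92 in wounds and from 5.56 to 5.99 in controls. The list is not of myeloid cells alone, since ITGB2, which rose, is an integrin chain of leukocytes in general. CYBB rose by 3.29 (adjusted p = 0.0225, 0.0741 with the block), LY96 by 2.99 (0.0139, 0.0469 with the block), C1QB by 2.75 (0.0229, 0.0592 with the block) and LAPTM5 by 2.64 (0.0153, 0.0626 with the block), and CSF1R and C1QA differed by 1.65 (adjusted p = 0.0589) and 2.10 (adjusted p = 0.0637). MRC1, the mannose receptor of some macrophages, picked after its values were seen, was the exception to the direction, at -2.0 (adjusted p = 0.154). Leaving out 1 array moved the 12 to between 0, without control replicate 3, and 11, without wound replicate 3. Of 7 B cell markers 0 rose and 0 fell, with a median of 0.00 and mean levels of 3.65 to 3.87 in wounds and 3.73 to 3.78 in controls. Of the 7, 3 lay under the median control level. CD79B, which defines B cells, and PAX5 differed by -0.03 (adjusted p = 0.653) and -0.04 (adjusted p = 0.864), while BTK, shared with myeloid cells, differed by 0.89 (adjusted p = 0.0767) and EBF1, also a stromal gene, by -0.90 (adjusted p = 0.363). CD79B read between 2.43 and 2.51 on every array, and whether it was above background is not known. The part of these cells in the levels of CD3D and CD3E was not tested.

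Of 5 thrombocyte and 6 erythroid markers 0 passed the test, and the medians were 0.43 and -0.05. The haemoglobin chains HBA1 and HBAD differed by 0.03 and -0.07 (adjusted p 0.955 and 0.899), but both read 14.52 or more on every array, close to the highest value in the table, 15.1, where a change may not show. SLC4A1, the anion exchanger of the red cell membrane, picked after its values were seen, measured 8.93, 10.70 and 9.78 in wounds and 10.86, 11.38 and 10.46 in controls (-1.10, adjusted p = 0.480), lower in the wound at each replicate number but with overlapping groups. F13A1 differed by 1.16 (adjusted p = 0.227) and ITGB3 by -0.59 (adjusted p = 0.193). Of 18 epithelial markers 4 rose, KRT75 by 5.98, PKP1 by 1.25, CLDN1 by 0.79 and EPCAM by 0.73 (adjusted p 0.0153, 0.0470, 0.0109 and 0.0147, with the block 0.0571, 0.0595, 0.0417 and 0.0541, which leaves CLDN1), around a list median of 0.55, with KRT7 at 0.62 (adjusted p = 0.0969) and KRT14 at 0.59 (adjusted p = 0.140). Without control replicate 1, 2 or 3 the 4 calls were 2, 0 and 1. Of 13 endothelial markers EGFL7 fell by 1.18 (adjusted p = 0.0384, 0.121 with the block) and of 13 fibroblast markers TCF21 fell by 1.52 (adjusted p = 0.0309, 0.0775 with the block), with list medians of -0.66 and -0.68. Without wound replicate 3, 5 endothelial and 3 fibroblast markers were lower and the medians were -0.80 and -1.11. Without any other single array 0 were lower in either list, and the fibroblast median without wound replicate 2 was -0.39. The most abundant of those that did not pass were CDH5 (-0.96, adjusted p = 0.305) and PECAM1 (-0.49, adjusted p = 0.170), and COL3A1 (-0.40, adjusted p = 0.715) and COL1A1 (-1.10, adjusted p = 0.397). Both groups thus held epithelial, endothelial and stromal markers of the CAM, with list mean levels of 6.13 to 9.47 in wounds and 6.45 to 9.58 in controls.

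CD3D had the widest range of the 10 probe sets, 1.98 over the 6 arrays. The 3 named genes whose values followed it most closely were FAM103A1, which activates the enzyme that caps messenger RNA, ITGB2, the beta-2 integrin chain of leukocytes, and CPNE8, a copine. Pearson's r over the 6 arrays was 0.9975 for FAM103A1, 0.996 for ITGB2 and 0.9952 for CPNE8. ITGB2 measured 7.69, 8.30 and 7.80 in wounds and 5.95, 4.91 and 5.64 in controls. As in CD3D, replicate 2 was the highest wound and the lowest control, and ITGB2 rose by 2.43 (adjusted p = 0.0429 from limma, 0.129 with the block). With 6 arrays that share eggs and a common wound effect such values are frequent, and 1157 named probe sets had an r above 0.9 with CD3D.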

How the data were processed

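Wound and control CAM of the same 3 eggs gave 6 Affymetrix chicken GeneChips, 1 per sample. The authors deposited log2 intensities per probe set, made by robust multi-array averaging (RMA) in R, of unstated version. GCOS scaling is named too, whose linear signals these values, 1.16 to 15.1, are not. The arrays carry no counts, so their number limits the precision. Of 38535 probe sets 96 controls were left out. Of the 38439 tested, 27168 carry 1 gene symbol in the platform annotation, 177 carry several, which were left unnamed, and 11094 lack any. The gene IDs of 26853 are in the RefSeq table. The unused per-sample columns numbered 0.

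The 3 wounds were compared with the 3 controls in limma 3.58.1 (R 4.3.3; lmFit and eBayes), unpaired as in the methods, with Benjamini-Hochberg adjustment over all probe sets. The methods name SAM with a Wilcoxon statistic, which was replaced by limma because 6 arrays allow 20 relabellings. Its rank-sum test is an alternative. In lists the probe set with the highest mean stands for its gene. Named are all members and, in each list, up to 4 genes past the test by size and up to 2 of the highest mean that were not. Further genes were picked with their values in view, CD8BP, CD79B and PAX5 among them. The members and lists were chosen with earlier results of these data known. The eggs gave both tissues, but whether a shared replicate number means a shared egg is not stated. Deviations from the group means correlated at 0.58, 0.634 and 0.45 between the same-numbered arrays. Between differently numbered arrays they correlated at -0.449 to -0.115. Deviations from a group mean cancel within the group, so these negative values follow in part from the positive ones and add little. From the same-numbered values the numbers were taken to pair the arrays, though a shared egg and shared processing cannot be told apart. A fit with the number as a block is given beside called results that it ends. In simulated data with the same 38439 probe sets limma recovered 43 of 67 changes of 1 on the log2 scale, 55 of 67 of 2 and 64 of 66 of 3. It also made 23 false calls, a larger share of the calls than the adjusted p threshold allows on average. Dim probe sets, most of them nearly flat in the real data, were not counted apart from the brighter ones. The recovery at the level of CD3D is therefore not known. Summaries and plots used Python 3.11.15, pandas 2.3.3, numpy 2.4.6 and matplotlib 3.10.9.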

Additional observations from a re-analysis of the deposited data

How the results depend on the processing

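With the array medians centred, 1 of the 10 T cell probe sets, that of CD3D, was higher, where the unpaired fit as deposited had 0. With dim probe sets left out only 5 of the 10 were still tested, and 1 of these, again that of CD3D, was higher. In the other settings the count stayed at 0. The difference of CD3D lay between 1.17 and 1.46 and its adjusted p between 0.0868 and 0.145 with any 1 array left out. That of CD3E lay between 0.47 and 0.78. The sign of the small differences changed in some of the fits that left out 1 array, over ranges of -0.24 to 0.02 for CD247, -0.14 to 0.16 for CD4, -0.03 to 0.01 for CD28, -0.01 to 0.02 for the brighter CD8A probe set, 0.00 to 0.01 for LCK and -0.04 to 0.03 for GATA3. Over all probe sets 785 were higher and 117 lower. The counts were 1423 and 365 without dim probe sets (fewer tests), 121 and 56 after quantile normalization, 270 and 45 with the replicate block, 208 and 50 with a fold over 2 as well, and 0 and 0 by the exact rank-sum test, whose p cannot go below 0.1. Limma with trend and robust called 374 higher. Without 1 array 22 to 790 were higher and 10 to 421 lower. Leaving out dim probe sets moved the medians of the receptor complex, costimulatory, signalling and cytokine lists to 0.64, 0.57, 0.23 and 0.68. The filter took dim genes out of these lists by the mean over all arrays, which kept CD3E in through its wound values. The replicate block ended the calls of 4 of the 5 T cell list genes that rose, leaving CD44, and quantile normalization those of 3. The causes of the shifts between settings were not tested.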
